A study of Mus with 6 samples.

Results

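MHC class I presentation genes were examined in mouse CD4+ T cells that had been activated in culture with or without neutralization of VEGF-B. The 8 genes, chosen by symbol, were B2m, H2-K1, H2-D1, Tap1, Tap2, Tapbp, Nlrc5 and Erap1. All 8 were found among the 10995 protein-coding genes of the table, each once. Naive CD4+ T cells came from the spleen of wild-type mice and were stimulated for 3 days through CD3 (antibody at 5 μg/mL) and CD28 (antibody at 2 μg/mL) in the presence of IL-2 at 100 U/mL. During this time 3 samples received anti–VEGF-B at 1 μg/mL and 3 received normal goat IgG at the same dose, and 1 RNA-Seq library was made from each. The study made this comparison to learn how VEGF-B, a growth factor that the T cells themselves secrete, acts on their survival. No source states whether the 3 libraries of a group came from separate mice or cultures, so the p-values measure the spread between these libraries, which may be technical. Levels are in FPKM, that is, fragments scaled for transcript length and for the mapped reads of each library.

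MHC class I molecules carry short peptides from the inside of a cell to its surface, where CD8+ T cells and NK cells inspect them. Each molecule consists of a polymorphic heavy chain and the invariant light chain β2-microglobulin. Peptides cut by the proteasome are pumped into the endoplasmic reticulum by the TAP transporter, trimmed there, and fitted into the heavy chain by a loading complex in which tapasin bridges TAP and the heavy chain. Lymphocytes express the pathway at a high level at rest, and interferon raises it further through IRF1 and the transactivator NLRC5.

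The libraries had the markers of CD4+ T cells. Cd4 lay between 64.0 and 74.6 FPKM, and the summed level of 7 T cell markers between 383 and 430 with anti–VEGF-B and between 408 and 478 with IgG. Of the CD8+ T cell markers, Cd8a was at most 0.18 FPKM and Cd8b1 between 2.27 and 4.51. Of 6 B cell markers the table listed 1, Cd79b, at no more than 1.34 FPKM. Of 7 macrophage and monocyte markers 4 were listed, with a summed level of 11.2 to 12.2 FPKM with anti–VEGF-B and 12.8 to 27.2 with IgG. The upper end belonged to IgG replicate 3, in which Lyz2 was at 16.4 FPKM against 3.26 to 4.19 elsewhere. Without that library the same 4 members as below were called, where 17.3% of all genes were lower. Of 5 dendritic cell markers and 4 NK cell markers 1 each was listed, both at or under 0.51 FPKM, and none of 4 erythroid and granulocyte markers. Over all 8816 genes tested, the log2 fold change had a median of -0.15, so that most genes were slightly lower with anti–VEGF-B, and IgG replicate 2 held the highest of the 3 IgG values for 59.3% of genes.

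Of the class I genes, Tapbp, Nlrc5, Tap2 and H2-D1 fell with anti–VEGF-B, and the largest falls were those of the loading factor Tapbp and the transactivator Nlrc5, to a little over 0.5 of the IgG level (0.543 and 0.568). H2-K1, Tap1, Erap1 and B2m did not pass the test. Of the 8 genes, all of which passed the filter on low values, 4 were lower at an adjusted p under 0.05 in limma, where 23.8% of all genes tested were lower. None was higher at an adjusted p under 0.05, against 4.87% of all genes, or at an unadjusted p under 0.05, against 702 of the 8816 genes tested. Every anti–VEGF-B library lay below every IgG library for 5 members (38.5% of all genes) and above for none (10.5% of all genes). The median log2 fold change of the members was -0.27. As RNA was measured in bulk, less RNA per cell cannot be told apart from fewer cells that express a gene. Scaling between libraries bore on the count: 3 members were lower after quantile normalization (10.4% of all genes), 2 after median centring (9.15%) and 5 after cyclic loess normalization (10.6%), while 9.98%, 15.5% and 9.66% of all genes were higher. Without anti–VEGF-B replicate 3 or without IgG replicate 2 only Tapbp and Nlrc5 were called, where 7.88% and 12.5% of all genes were lower. When the variance was not moderated in limma, 0 members passed, and 6 of all genes passed in each direction. At an unadjusted p under 0.05, 5 members were lower in this fit and in the main fit. In the main fit 3104 of the 8816 genes tested were lower at that unadjusted p. How many were so in the fit with no moderation was not counted.

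**Figure D1:**
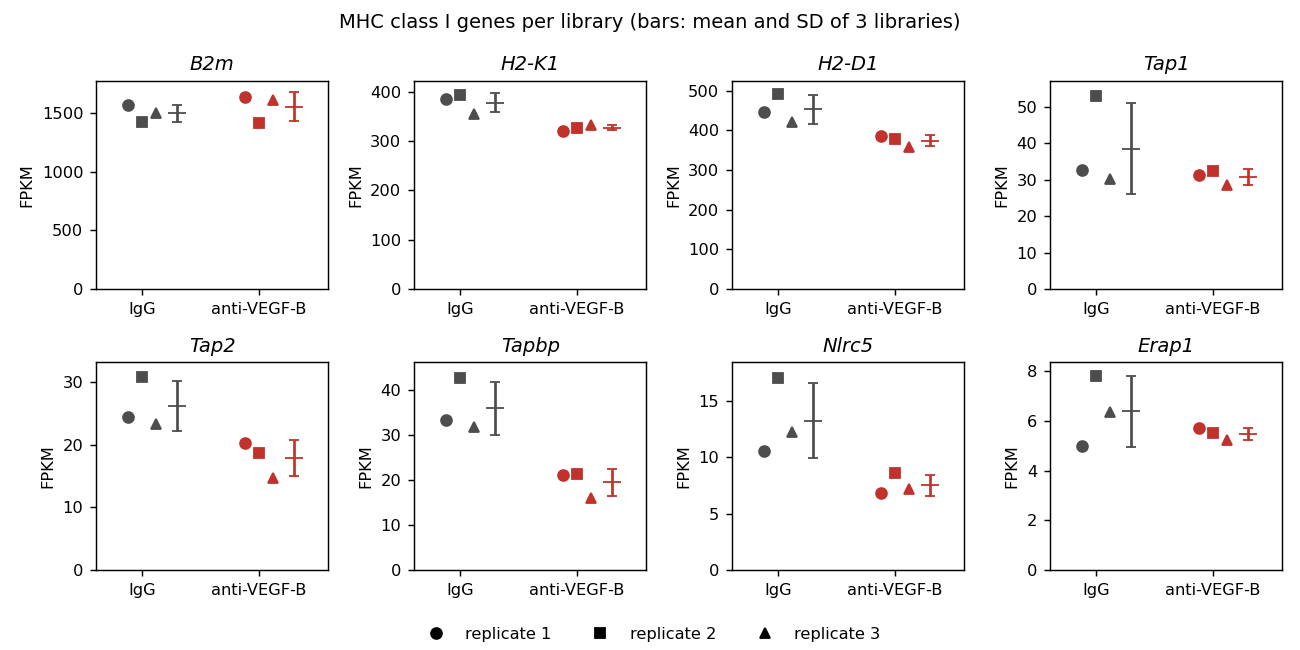
FPKM (y axis, from 0) of the 8 MHC class I genes in each of the 3 IgG (gray) and 3 anti–VEGF-B (red) libraries, with the mean and SD beside the points. For Tapbp, Nlrc5, Tap2, H2-D1 and H2-K1 the groups did not overlap, while those of B2m, Tap1 and Erap1 did.

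B2m, which encodes β2-microglobulin, was among the most abundant mRNAs, ranking 20 among the genes of the table by mean level. It was at 1641, 1414 and 1609 FPKM in the anti–VEGF-B libraries and at 1573, 1426 and 1502 in the IgG libraries. The lowest value of each group came from replicate 2, and the groups overlapped over nearly their whole range. The log2 fold change was 0.049, with a 95% confidence interval of -0.15 to 0.25 (limma adjusted p = 0.694), so that a fall as large as that of Tapbp lay outside the interval. Its sign depended on the scaling, being -0.062 after quantile normalization and -0.091 after cyclic loess normalization but 0.25 after median centring, none of which passed.

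H2-K1 and H2-D1 encode the classical heavy chains, which present peptides to CD8+ T cells. H2-D1 was at 386, 378 and 358 FPKM with anti–VEGF-B and at 446, 493 and 421 with IgG. All anti–VEGF-B values were thus below all IgG values, by 17.5% on the mean. The log2 fold change was -0.27 (standard error 0.082, limma adjusted p = 0.0351). This call was lost without any single anti–VEGF-B library or without IgG replicate 2 (adjusted p from 0.0673 to 0.136 in limma) and under 3 further alternatives, among them median centring, under which the log2 fold change was -0.074 (limma adjusted p = 0.586, range over all alternatives 0.0211 to 0.586).

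H2-K1 was at 321, 327 and 332 FPKM with anti–VEGF-B and at 386, 392 and 355 with IgG. The groups again did not overlap, and the means were 327 ± 5.42 and 378 ± 19.9 (SD, n = 3 each). The log2 fold change of -0.21 did not pass the test (95% confidence interval -0.37 to -0.045, limma adjusted p = 0.0573). It was -0.055 relative to the median of all genes, which puts H2-K1 close to the middle of the table, with 42.3% of tested genes having a lower log2 fold change. Cyclic loess normalization gave -0.30 (limma adjusted p = 0.0226, range over all alternatives 0.0226 to 0.967) and median centring -0.0063 (adjusted p = 0.967), and the fit with the replicate number as a block gave an adjusted p of 0.0451. The heavy chain genes of the H2 complex are closely similar in sequence, so that the assignment of reads among them, and hence their single values, is uncertain.

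Tapbp encodes tapasin, which holds empty class I molecules at TAP and selects for peptides that bind well. It was at 21.1, 21.4 and 16.0 FPKM with anti–VEGF-B and at 33.3, 42.5 and 31.8 with IgG. The highest anti–VEGF-B library was well below the lowest IgG library, and the mean fell by 45.7%. The log2 fold change of -0.85 (standard error 0.136, limma adjusted p = 0.00650) was the lowest of the 8 genes, and 1.71% of all tested genes had a lower one. Under the 14 alternatives it ran from -0.93 to -0.65, and it passed in all but the fit with no moderation of the variance (limma adjusted p = 0.0799 without moderation, range over all alternatives 0.00642 to 0.0799).

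Tap1 and Tap2 encode the subunits of the TAP transporter, which pumps peptides only as a heterodimer. Tap2 was at 20.2, 18.7 and 14.7 FPKM with anti–VEGF-B and at 24.3, 30.7 and 23.3 with IgG, with no overlap between the groups. Its log2 fold change was -0.53 (standard error 0.135, limma adjusted p = 0.0220), and 9.83% of tested genes had a lower one. It was -0.41 without IgG replicate 2 (adjusted p = 0.0650) and -0.40 without anti–VEGF-B replicate 3 (adjusted p = 0.0699), and it also did not pass after median centring (-0.33, adjusted p = 0.0679) or with no moderation (0.125, with 0.0157 as the lowest value of any alternative).

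Tap1 was at 31.3, 32.5 and 28.5 FPKM with anti–VEGF-B and at 32.5, 53.0 and 30.1 with IgG. One IgG library, replicate 2, was high, and the other IgG values were within the range of the anti–VEGF-B group or next to it. The log2 fold change of -0.27 had a wide 95% confidence interval, from -0.68 to 0.13 (limma adjusted p = 0.267). The IgG mean was 38.6 ± 12.6 FPKM over 3 libraries and 31.3 without replicate 2, beside 30.8 ± 2.08 with anti–VEGF-B (SD, n = 3).

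Nlrc5 encodes the transactivator that, with RFX and other factors, drives transcription of the heavy chains, B2m, Tap1 and immunoproteasome genes. It was at 6.85, 8.59 and 7.18 FPKM with anti–VEGF-B and at 10.5, 17.0 and 12.3 with IgG. All anti–VEGF-B libraries were below all IgG libraries, and IgG replicate 2 was again the highest. The mean fell by 43.2%, a log2 fold change of -0.72 (standard error 0.158, limma adjusted p = 0.0136), and 3.35% of tested genes had a lower one. It ran from -0.86 to -0.52 over the 14 alternatives and passed in all but the fit with no moderation (adjusted p = 0.105, range over all alternatives 0.00940 to 0.105).

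Erap1 encodes the aminopeptidase that trims peptides in the endoplasmic reticulum to the length class I molecules accept. It was the least abundant member, at 5.70, 5.49 and 5.20 FPKM with anti–VEGF-B and at 4.96, 7.79 and 6.35 with IgG. The anti–VEGF-B libraries lay close together inside the broader IgG range. The log2 fold change of -0.17 (95% confidence interval -0.48 to 0.14, limma adjusted p = 0.361) was near the median of all genes, and it turned positive after quantile normalization (0.028), median centring (0.029) and cyclic loess normalization (0.020).

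**Figure D2:**
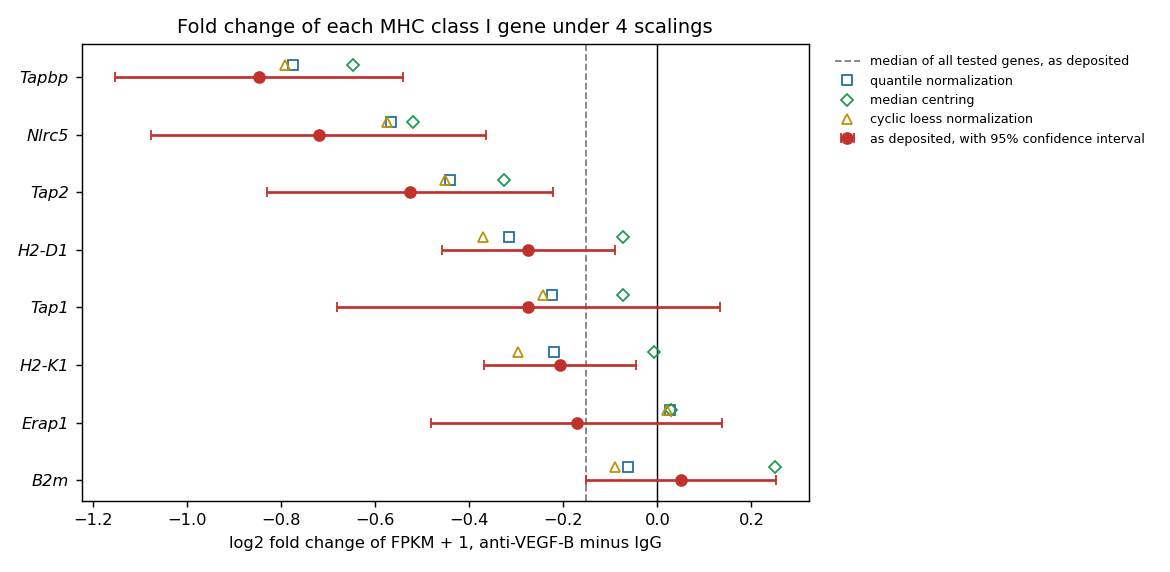
log2 fold change (x axis, anti–VEGF-B minus IgG, on log2 of FPKM + 1) of each MHC class I gene as deposited, with its 95% confidence interval, and under 3 other scalings (open symbols). Tapbp and Nlrc5 stayed under -0.5 on each scaling, whereas B2m and Erap1 lay on either side of 0 depending on it; the dashed line is the median of all tested genes, -0.15.

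IgG replicate 2 held the highest IgG value for 7 of 8 members, the exception being B2m, for which it was the lowest. Anti–VEGF-B replicate 3 held the lowest anti–VEGF-B value for 5 of 8 members, where it did so for 45.0% of all tested genes. Ratios within a library do not depend on scaling by a common factor, and 6 were chosen after the values had been seen. H2-K1 and H2-D1 together had 0.431, 0.499 and 0.429 FPKM per FPKM of B2m with anti–VEGF-B and 0.529, 0.621 and 0.517 with IgG. The heavy chain ratio was thus lower in every anti–VEGF-B library (two-sided exact permutation test, p = 0.1, or 0.2 adjusted over the 6 ratios). With 3 libraries against 3 the test cannot go below 0.1.

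The ratio of Tapbp to Tap2 was 1.04, 1.14 and 1.09 with anti–VEGF-B and 1.37, 1.39 and 1.36 with IgG, with no overlap and little spread in the IgG group (exact permutation test, p = 0.1, adjusted 0.2). Tapbp amounted to 2.78% ± 0.393 of the summed heavy chains with anti–VEGF-B and to 4.30% ± 0.437 with IgG (SD, n = 3 each, exact permutation test, p = 0.1, adjusted 0.2). The ratio of Tap1 to Tap2 was 1.75 ± 0.197 and 1.45 ± 0.240, with overlap (exact permutation test, p = 0.2), and that of H2-K1 to H2-D1 was 0.875 ± 0.0487 and 0.835 ± 0.0353 (p = 0.4). Of all FPKM, B2m made up 0.575% ± 0.0306 with anti–VEGF-B and 0.561% ± 0.0113 with IgG (exact permutation test, p = 0.6).

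**Figure D3:**
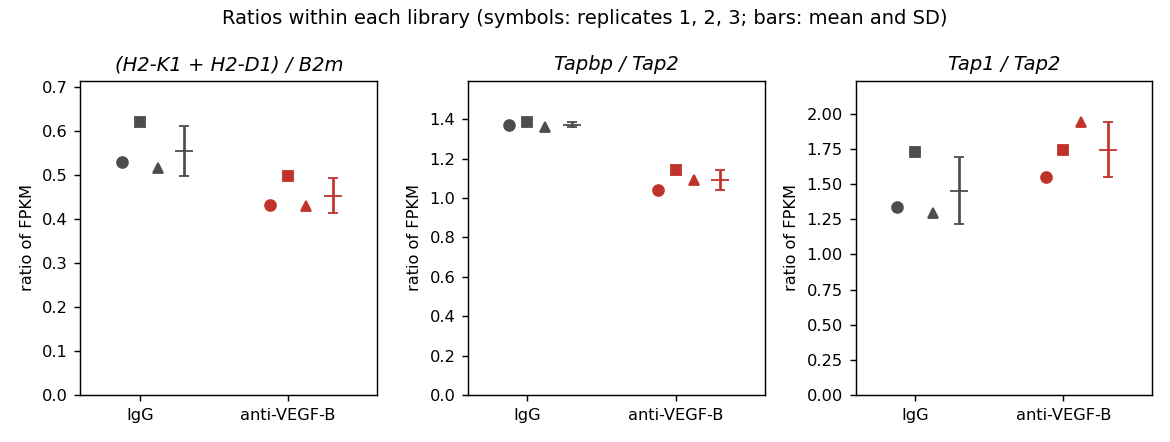
Ratios of FPKM (y axes, from 0) within each of the 3 IgG (gray) and 3 anti–VEGF-B (red) libraries, with the mean and SD beside the points. Heavy chains per B2m and Tapbp per Tap2 were lower in every anti–VEGF-B library, while the Tap1 to Tap2 ratios overlapped.

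The other genes of the pathway were taken from 6 lists written from general knowledge, but with earlier results of these data known. Of the 68 genes tested from these lists, 19 were lower (27.9%, against 23.8% of all genes) and 4 higher (5.88%, against 4.87%), shares near those of all genes. Of these 23 genes, H2-Q7, H2-Q10, Rfxank and Socs1 also passed under the 3 other scalings and without each library in turn. The fit without anti–VEGF-B replicate 3 lost 15 of the 23 calls, and that with no moderation all of them. Among the other class I and class I-like heavy chains, 9 genes were tested and 4 were lower (23.8% of all genes), none higher at an adjusted or unadjusted p under 0.05. H2-Q7, a nonclassical heavy chain gene, was at 50.1, 52.2 and 46.1 FPKM with anti–VEGF-B and at 72.8, 96.1 and 73.5 with IgG. This clear separation gave a log2 fold change of -0.69 (limma adjusted p = 0.00670). The other genes that fell were H2-Q6 (-0.49), H2-Q10 (-0.51) and H2-M3 (-0.59), with adjusted p from 0.0104 to 0.0177. H2-T23, which encodes the Qa-1 molecule read by the NK cell receptor NKG2A, averaged 63.7 ± 2.62 FPKM with anti–VEGF-B against 67.3 ± 6.41 with IgG (SD over 3 libraries), a log2 fold change of -0.075 (limma adjusted p = 0.522). It was above 0 after median centring (0.13), under which H2-Q7 and H2-Q10 were lower and H2-Q2 higher, and H2-M3 did not pass under any of the 3 other scalings.

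In the loading complex and the quality control of the endoplasmic reticulum, 3 of 10 genes were lower (30%, against 23.8% of all genes) and none was higher, at an adjusted or unadjusted p under 0.05. Calr, which encodes the chaperone calreticulin, fell from 111 ± 9.83 to 81.8 ± 3.70 FPKM (SD, n = 3 each), a log2 fold change of -0.43 (limma adjusted p = 0.00961). Pdia3, the gene of ERp57, the oxidoreductase bound to tapasin, had -0.27 (adjusted p = 0.0311), and Ganab, a glucosidase gene, had -0.57 (adjusted p = 0.0223). The median of the list was -0.28, about that of the 8 members. After median centring only Ganab was lower, and the glucosidase subunit gene Prkcsh was higher.

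Of 14 tested genes of peptide generation, which include proteasome activators, 3 were lower and none was higher (1 at an unadjusted p under 0.05). The share of 21.4% lower was close to the 23.8% of all genes. The median was -0.032, or above 0 under the 3 other scalings (0.046 to 0.169). Psme4 and Psme3, which encode proteasome activators, had log2 fold changes of -0.45 each (adjusted p = 0.0164 and 0.0317 from limma). Among the immunoproteasome subunits, which interferon induces, Psmb10 had -0.36 (adjusted p = 0.0312), Psmb8 -0.15 (adjusted p = 0.152) and Psmb9 -0.014 (adjusted p = 0.920). Psmb9, which lies beside Tap1 in the H2 complex, was at 10.9, 10.0 and 11.0 FPKM with anti–VEGF-B and at 10.7, 11.8 and 9.84 with IgG, so that the groups overlapped throughout. Psmb10 and Psme3 lost their calls under all 3 other scalings, and Psme4 after median centring (-0.24, adjusted p = 0.0743), under which 0 genes of the list were lower and 2 higher (Psme1 and Tpp2). Psmb8 was above 0 after median centring, and Psmb9 under each of the 3.

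Among 15 tested genes that act on the transcription of class I genes, 4 were lower (26.7%, against 23.8% of all genes) and 2 higher (13.3%, against 4.87%). Under each of the 3 other scalings 2 were lower, Rfxank and Irf9, and 3 higher, Creb1 being the addition. Rfxank, a subunit of the RFX complex with which NLRC5 works at promoters, fell from 4.66 ± 0.824 to 2.37 ± 0.442 FPKM (log2 fold change -0.74, limma adjusted p = 0.00936). Rfx5, another subunit, averaged less than 1 FPKM and entered only the fit with no filter, in which it was lower (log2 fold change -0.53, limma adjusted p = 0.0297). Anti–VEGF-B libraries had 0.611, 0.381 and 0.649 FPKM of it, below the 0.836, 1.71 and 1.23 of the IgG group.

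Irf9, part of the factor that answers type I interferon, had a log2 fold change of -0.58 (limma adjusted p = 0.0130), Irf1 had -0.32 (adjusted p = 0.0383) and the histone methyltransferase gene Ezh2 -0.28 (adjusted p = 0.0441). Irf1 and Ezh2 did not pass under any of the 3 other scalings. The genes that rose were Nfyb (0.41, adjusted p = 0.0129), a subunit of the CCAAT-binding factor NF-Y, and Irf2 (0.32, adjusted p = 0.0198), which binds the same elements as IRF1.

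In interferon signaling, 4 of 12 genes were lower (33.3%, against 23.8% of all genes) and 1 higher (8.33%, against 4.87%). Socs1, a feedback inhibitor of JAK kinases, was at 14.6, 16.4 and 11.7 FPKM with anti–VEGF-B and at 27.4, 35.8 and 23.1 with IgG. Its groups did not overlap, and its log2 fold change was -0.96 (limma adjusted p = 0.00714). Socs3 (-0.55), the type I interferon receptor gene Ifnar1 (-0.50) and the kinase gene Tyk2 (-0.60) had adjusted p from 0.0152 to 0.0259, while the phosphatase gene Ptpn2 rose (0.34, adjusted p = 0.0273). Ifnar1 and Tyk2 did not pass under any of the 3 other scalings. Usp18, which encodes an inhibitor of type I interferon signaling, was higher under each of them. It did not pass as deposited (log2 fold change 0.14, limma adjusted p = 0.366). After median centring the list thus had 2 genes lower and 4 higher, among them the kinase gene Jak1.

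The ligand of the γ pathway was low in both groups. Ifng was at 1.01, 1.14 and 0.890 FPKM with anti–VEGF-B and at 1.99, 0.880 and 1.14 with IgG, which overlapped (log2 fold change -0.19, limma adjusted p = 0.404). The receptor genes Ifngr1 and Ifngr2 had log2 fold changes of 0.022 (adjusted p = 0.876) and 0.081 (adjusted p = 0.526). Ifngr2 passed after median centring alone (0.28, adjusted p = 0.0443), and Ifng was above 0 there (0.014) and after cyclic loess normalization (0.047).

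MHC class II presentation genes, which serve CD4+ T cells, were given for comparison. Most lie in the H2 complex, but Ctss is on chromosome 3 and Cd74 on chromosome 18. Of 8 tested, 1 was lower (12.5%, against 23.8% of all genes), the lysosomal protease gene Ctss (log2 fold change -0.46, limma adjusted p = 0.00730), and 1 higher (12.5%, against 4.87%), H2-Ab1 (0.26, adjusted p = 0.0209). After quantile or cyclic loess normalization 1 was lower and 3 higher, and after median centring 0 were lower, Ctss having lost its call (adjusted p = 0.0644), and 4 higher. H2-Ab1 was at 157, 154 and 149 FPKM with anti–VEGF-B and at 128, 129 and 127 with IgG. Every anti–VEGF-B library thus lay above every IgG library, as for 10.5% of all genes, opposite to H2-K1 and H2-D1. H2-Aa, the gene of the other chain of the same class II molecule, was under the filter. Its groups overlapped, at 0.632 to 0.847 FPKM. The H2-Ab1 call was lost without anti–VEGF-B replicate 1 or 3 or without IgG replicate 3 (limma adjusted p from 0.0598 to 0.0632). It was also lost with no moderation (adjusted p = 0.0693). The median of the class II list was 0.036, against -0.27 for the class I members. It was 0.20, 0.24 and 0.19 after quantile, median and cyclic loess scaling, where that of the members was -0.27, -0.074 and -0.33. Whether the lists differ was not tested.

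**Figure D4:**
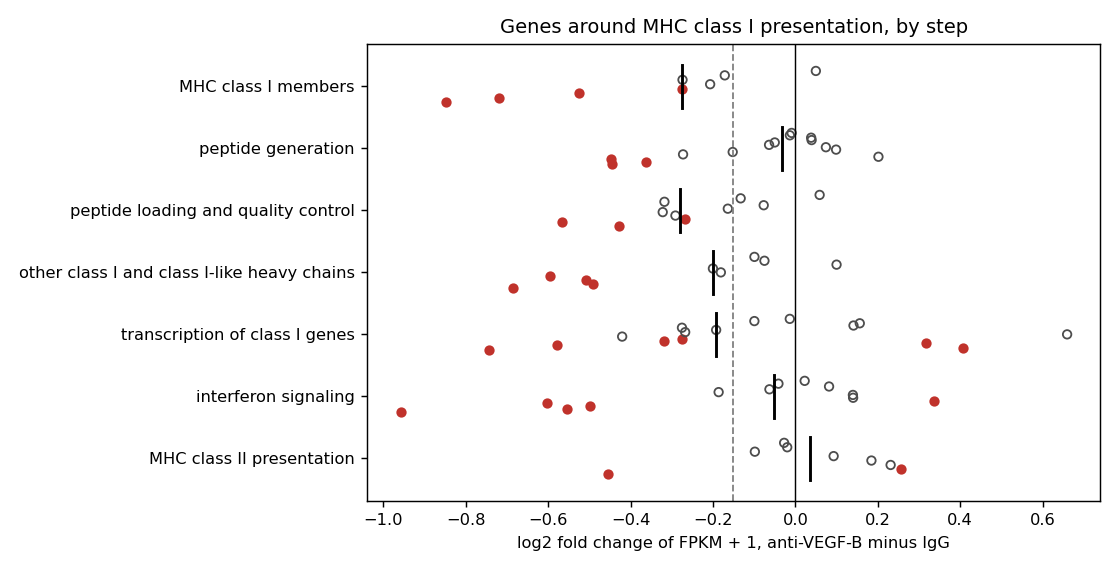
log2 fold change (x axis, anti–VEGF-B minus IgG, on log2 of FPKM + 1) of each tested gene of the MHC class I members and of 6 related lists. Filled points had an adjusted p under 0.05 in limma, thick bars are list medians, and the dashed line is the median of all tested genes (-0.15); the class I members had a median of -0.27, peptide generation -0.032 and MHC class II 0.036.

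Of the 8 members 5 lie in the H2 complex on chromosome 17 of GRCm38, in the order Tapbp (33915899 to 33929288), H2-K1 (33996017 to 34000333), Tap1 (34187553 to 34197225), Tap2 (34203527 to 34216321) and H2-D1 (35262730 to 35267499). Tap1 and Tap2 are on the same strand, with Psmb8 between them and Psmb9 on the other side of Tap1. B2m lies on chromosome 2 (122147686 to 122153083), Nlrc5 on chromosome 8 (94434356 to 94527272) and Erap1 on chromosome 13 (74639568 to 74693201). In the 1.35 Mb between the outermost members on chromosome 17, 56 other genes were tested, of which 13 were lower (23.2%, against 23.8% of all genes) and 4 higher (7.14%, against 4.87%). Their median log2 fold change was -0.14, about that of all genes. The span held genes that fell, such as Tnf (-0.79) and Atf6b (-0.94), and genes that rose, such as Ltb (0.40) and Hspa1a (0.78), which were picked after their values had been seen.

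Over the 6 libraries, the log2 levels most like those of Nlrc5 belonged to Tube1 (Pearson's r = 0.998), Map3k5 (0.998) and Supt16 (0.998), all with IgG replicate 2 as the highest library. Those most like B2m belonged to Atp5g2 (0.992), Sec61g (0.990) and Rnasek (0.984), for which replicate 2 was the lowest library of each group. The genes were picked for the highest r among the 8816 tested, members left out, so high values were built into the choice. These r values describe the 6 libraries, which share the difference between treatments and that between libraries.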

How the data were processed

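RNA-Seq libraries of 3 anti–VEGF-B and 3 IgG samples were compared. The authors aligned stranded reads to GRCm38 with hisat2, quantified them with StringTie and Ballgown, and deposited FPKM per protein-coding gene. Although the table is labelled raw data, its numbers have decimals and were read as FPKM. At most 0.935% of genes under 0.3 FPKM shared a ratio (within 1e-04 on the natural log scale) in a pair of libraries, so no reads were recovered and depth is unknown.

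Genes averaging 1 FPKM or more (8816) entered a fit of log2(FPKM + 1) in limma 3.58.1 under R 4.3.3 (empirical Bayes with trend, no covariate), with Benjamini-Hochberg adjustment over all of them and calls at an adjusted p under 0.05. On this scale changes of low genes are understated. The fit was tested on simulated data with independent noise for each gene and library. That simulation held no shift common to the genes of a library, so it cannot tell how such a shift bears on the calls. The members and lists were chosen with earlier results of these data known. Named were all members, up to 3 called genes of the lowest p per list, some genes set by name, and the 3 genes most like Nlrc5 and B2m. H2-M3, H2-Q2, Prkcsh, Irf2, Ezh2, Tyk2, Ptpn2, Jak1, Usp18, Tpp2 and Creb1 were named after their values were seen, as were the genes of the chromosome 17 span. So were H2-Aa and Cd74. Alternatives changed scaling, filter, pseudocount, moderation, replicate block and the libraries included. Some genes of the lists are not reported here, and no sequences were used.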

Additional observations from a re-analysis of the deposited data

How the results depend on the processing

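The count of 4 lower members stood beside 23.8% of all genes lower. It was 2 after median centring (9.15% of all genes) and 0 with no moderation of the variance in limma (0.0681%). In the fit with no moderation 5 members were lower at an unadjusted p under 0.05. The share of all genes lower at that p was not counted for this fit, so the 5 cannot be set against it. With 1 library left out the count ran from 2 to 4, and the share of all genes from 7.88% to 23.5%. The count was 3 after quantile normalization (10.4% of all genes) and 5 after cyclic loess normalization (10.6%). It was 4 with no filter (21.2%), over genes averaging 5 FPKM or more (20.1%), or with a pseudocount of 0.1 (23.7%). No member was higher under any of these alternatives, at an adjusted or an unadjusted p under 0.05. Of all genes 0.0681% to 15.5% were higher at an adjusted p under 0.05. With the replicate number as a block, 5 members were lower (23.9% of all genes), H2-K1 being the addition, and no other member's call changed. Whether the numbers pair the libraries is unknown, and 3 libraries per group are too few to tell. Deviations of same-numbered libraries had correlations of -0.030, 0.110 and 0.089 across genes. That of the replicate 2 libraries was the highest of any pair, but not every library correlated best with its own number. The median log2 fold change of the members stayed negative, from -0.38 to -0.074. Signs changed only for B2m (-0.062 after quantile and -0.091 after cyclic loess normalization) and Erap1 (0.028, 0.029 and 0.020 after quantile, median and cyclic loess scaling), neither of which was called. The cause of these changes was not tested. Of the 23 called genes of the pathway lists, 7 kept their call without each library in turn and 11 under the 3 other scalings. The libraries whose omission lost most of these calls were anti–VEGF-B replicate 3 (15), replicate 1 (9) and replicate 2 (8) and IgG replicate 2 (7). With the replicate block all 23 were kept. FPKM carry no depth, so the precision of low values such as those of Ifng and Rfx5 is unknown.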

Other observations

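Further genes of the pathway were picked after their values had been seen. Psme1 and Psme2, which encode the partner subunits of the interferon-inducible proteasome activator PA28, had log2 fold changes of opposite sign. Psme1 was at 99.5, 94.5 and 98.7 FPKM with anti–VEGF-B and at 87.5, 84.8 and 81.9 with IgG (log2 fold change 0.20, limma adjusted p = 0.0504). Psme2 was at 46.1, 39.9 and 41.8 FPKM with anti–VEGF-B and at 47.4, 59.1 and 49.0 with IgG (-0.27, limma adjusted p = 0.0661). That was -0.12 relative to the median of all genes. Neither gene passed the test although the groups of each did not overlap. Of all genes, 10.5% lay above without overlap, as Psme1 did, and 38.5% below, as Psme2 did. Whether the changes of the pair differ was not tested. Psme1 was called higher after median centring, over genes averaging 5 FPKM or more and with the replicate block. The chains of the class II molecule I-A were listed at very different levels, H2-Ab1 between 127 and 157 FPKM and H2-Aa between 0.632 and 0.847 FPKM in the 6 libraries. Creb1, whose product binds class I promoters, was at 2.70, 7.42 and 6.14 FPKM with anti–VEGF-B and at 2.92, 2.87 and 2.73 with IgG, so that 1 anti–VEGF-B library had the level of the IgG group and the others were more than 2 times as high (log2 fold change 0.66, limma adjusted p = 0.0788). It was called higher under the 3 other scalings and without anti–VEGF-B replicate 1, the library at the level of the IgG group. Mr1, which presents microbial metabolites, was under the filter, at 0.783, 0.342 and 0.604 FPKM with anti–VEGF-B and at 0.984, 1.25 and 1.13 with IgG, and it was called lower when no filter was used.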
